A study of Mus musculus with 6 samples.

Results

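Collagen genes other than those that define cartilage were read in single-cell RNA-seq of mouse limb buds at stage E11.5. The set holds every gene whose symbol is Col, digits, a, digits and that has a row in the matrix of G4 and Inv1 cells, leaving out the cartilage collagens Col2a1, Col9a1 and Col9a3. These were 37 of the 16687 rows, from 40 symbols of that form. The matrix of C57BL/6 cells holds 34 of them, and Col6a5, Col10a1 and Col20a1 were read in G4 and Inv1 cells alone. The study asked how rearrangements at the Lbx1 and Fgf8 locus alter gene activity in the limb bud. The 6 libraries formed 6 groups of 1 library each, so no group has a replicate. The groups were hindlimbs of wild-type and homozygous Dup (duplication) embryos of strain c57bl6.J, hindlimbs of wild-type and homozygous Inv1 (inversion) embryos of strain G4 ESC, and forelimbs of G4 wild-type and Inv1 embryos, with the strain named G4 from here on. The G4 stem cells come from a 129sv x C57Bl6 cross, and mutant mice were derived from edited stem cells by aggregation with diploid or tetraploid hosts. For these embryos neither the host nor the number of embryos in a library is stated.

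Collagens are proteins of 3 chains wound into a helix, and they make up most of the matrix outside cells. Fibril-forming collagens (types I, III, V, XI) assemble into banded fibrils of connective tissue and cartilage, type IV chains form the sheet-like network of basement membranes under epithelia and around vessels and muscle, and type VI chains form beaded filaments. Fibril-associated collagens (types IX, XII, XIV, XVI) decorate fibrils, the multiplexins (types XV and XVIII) carry glycosaminoglycan chains at basement membranes, and a transmembrane group (types XIII, XVII, XXIII, XXV) sits in the cell surface. In the limb bud at this stage the mesenchyme is beginning to condense into cartilage, muscle precursors have entered from the somites, and the surface ectoderm with its apical ectodermal ridge (AER) rests on a basement membrane.

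The genes of the basement membrane chains lie in pairs on the chromosome. In NCBIM37, the assembly behind mm9, Col4a1 (ENSMUSG00000031502) runs on the minus strand of chromosome 8 from 11198423 to 11312826 and Col4a2 (ENSMUSG00000031503) on the plus strand from 11312805 to 11449287, so that their annotated 5′ ends overlap head to head. Col4a6 and Col4a5 on chromosome X are head to head too, with 1308 bases between them. Col3a1 and Col5a2 on chromosome 1 end towards each other with 24614 bases between them. RefSeq promoter windows of GRCm38.p6, from 250 bases before to 50 after the annotated start, were matched for 32 of the 37 genes. Col1a1, Col5a2, Col12a1, Col14a1 and Col22a1 were not matched. The windows of Col4a1 (minus strand, chr8:11312777-11313076) and Col4a2 (plus strand, chr8:11312555-11312854) are shown because the chains they start were not found in the same ratio in every class. Each is printed 5′ to 3′ on its own strand, and the capitals mark the 78 bases that both windows hold on opposite strands (chr8:11312777-11312854).
Col4a1: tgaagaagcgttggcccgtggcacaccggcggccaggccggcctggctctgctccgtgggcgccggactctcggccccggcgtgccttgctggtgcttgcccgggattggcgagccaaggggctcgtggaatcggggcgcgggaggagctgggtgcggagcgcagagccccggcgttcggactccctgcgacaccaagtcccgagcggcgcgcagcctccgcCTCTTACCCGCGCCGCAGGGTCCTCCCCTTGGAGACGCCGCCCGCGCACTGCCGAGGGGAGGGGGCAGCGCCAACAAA
Col4a2: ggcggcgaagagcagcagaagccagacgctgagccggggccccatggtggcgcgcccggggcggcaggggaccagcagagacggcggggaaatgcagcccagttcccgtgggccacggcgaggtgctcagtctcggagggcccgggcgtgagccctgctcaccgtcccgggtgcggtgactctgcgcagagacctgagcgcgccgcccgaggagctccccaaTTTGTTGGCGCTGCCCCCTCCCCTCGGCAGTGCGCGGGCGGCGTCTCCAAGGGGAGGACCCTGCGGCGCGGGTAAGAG
Motifs of 3 kinds were searched on both strands, the CCAAT box (CCAAT or ATTGG), the TATA box (TATAAA) and the GC box (GGGCGG or CCGCCC). The GC box is in 35.7% of the 32851 promoter windows of the table and lies within the shared bases of this pair, at position 260 of the Col4a1 window and 258 of the Col4a2 window. The Col4a2 window holds it outside the shared bases as well, at positions 59 and 203. The CCAAT box is in 37.4% of all windows and in both of these. It lies wholly outside the shared bases in the Col4a1 window (position 106) and partly within them in the Col4a2 window (position 219). The TATA box, in 13.6% of all windows, is in neither. Of the 34 windows of collagen genes, 21 hold a GC box, 10 a CCAAT box and 5 a TATA box.

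Of 26486 cells, the 24891 with more than 2000 genes detected were used, which gave 2249 to 5947 cells and 22660212 to 59418209 UMIs (unique transcript counts) per library. Classes are those deposited with each cell. Mesenchyme held 2025 to 5384 cells per library, muscle 112 to 268, endothelium 16 to 45, dorso-ventral ectoderm 11 to 95 and AER 10 to 82. A level is the UMIs of a gene in a class divided by all UMIs of that class and scaled to CPM, and values in a series follow the order C57BL/6 wild type, Dup, G4 hindlimb, Inv1 hindlimb, G4 forelimb, Inv1 forelimb. Intervals are exact 95% intervals that cover counting error only, and a lower sum can come from fewer cells with the transcript or from less of it per cell, which cannot be told apart here. The limb labels held, with Tbx5, the forelimb factor, at 0.435 and 0.330 CPM in the hindlimbs of G4 and Inv1 and at 117 and 81.3 CPM in the forelimbs. No pair of libraries shared more than 14 cell barcodes. Endothelial cells had UMIs of all 6 endothelial markers in each library. In dorso-ventral ectoderm all 7 ectoderm markers were found except Krt8 in the C57BL/6 wild type. The 6 AER markers, Fgf8 among them, were found in AER cells of every library but summed to 1121 and 1314 CPM in the Inv1 libraries against 3758 to 8374 CPM in the other 4.

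Mesenchyme had the highest median level for more collagen genes than any other class, but a part of these genes lay near the floor. Of the 37, 25 reached 10 CPM in at least 1 library of the 5 classes, and 9 stayed under 3 CPM. By the median over libraries, mesenchyme led for 22 genes, AER for 5, endothelium for 4, dorso-ventral ectoderm for 4 and muscle for 2. The 22 include all of the 9 genes under 3 CPM except Col20a1. The smaller classes may have too few UMIs to show such genes, so the lead of mesenchyme for them may reflect depth. These classes are clusters of the same cells, so the order is a description and was not tested. For 7 genes the libraries of the leading class all lay above every library of the other 4 classes. These were Col3a1, Col6a1, Col6a2 and Col14a1 in mesenchyme and Col4a1, Col4a2 and Col15a1 in endothelium. The same count was not made over all genes, so it is not read as a trait of collagen genes. Col14a1 was at only 0.233 to 1.75 CPM in mesenchyme, which the smaller classes may have too few UMIs to show. The lead of muscle for Col20a1 rests on 4 UMIs.

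**Figure D1:**
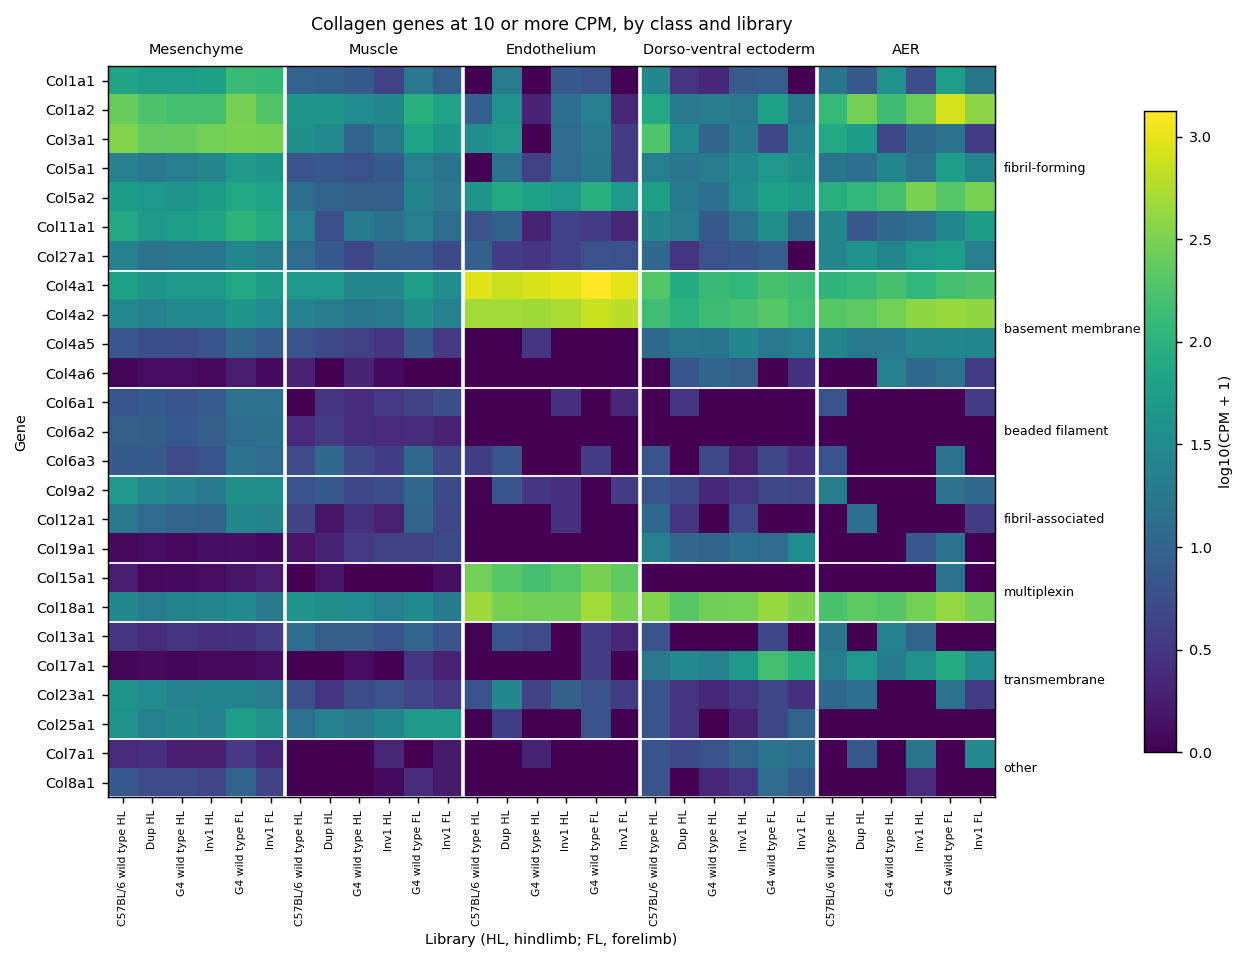
Levels of the 25 collagen genes that reached 10 CPM, as log10(CPM + 1) in colour, by gene (rows, grouped by kind of collagen) and by class and library (columns; HL, hindlimb; FL, forelimb). Col3a1 is brightest in mesenchyme, Col4a1, Col4a2 and Col15a1 in endothelium, and Col17a1 is dark outside the ectoderm and AER.

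Among fibril-forming collagens, Col3a1, the chain of type III collagen of loose connective tissue, led in mesenchyme. It was at 345, 237, 244, 291, 309 and 301 CPM there, against 9.08 to 62.9 CPM in muscle. Col1a2, the other chain of type I collagen, was at 253, 176, 157, 160, 302 and 189 CPM in mesenchyme. Its partner chain Col1a1 was at 65.9, 55.9, 54.4, 59.5, 132 and 119 CPM, so it was above 100 CPM in the forelimbs alone. Col11a1, a chain of type XI collagen that nucleates fibrils in cartilage and elsewhere, was at 75.0, 48.1, 54.3, 66.3, 105 and 82.8 CPM. Together Col3a1, Col1a2, Col1a1 and Col11a1 held 62.4% to 65.3% of the collagen UMIs of mesenchyme in every library. The type V chains, which set fibril diameter, were lower, with Col5a1 at 17.2 to 48.2 CPM and Col5a2 at 40.2 to 71.1 CPM. Col27a1, a fibrillar collagen of cartilage, was at 14.5 to 26.0 CPM, Col11a2 at 1.11 to 4.87 CPM and Col24a1 at 0.447 to 0.867 CPM.

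Type I collagen is a trimer of Col1a1 and Col1a2 chains, but their 3′ end counts were unequal. Because these are counts of transcript ends, gene length does not enter, but the ends of different genes may be captured unequally, so a ratio is read across classes and libraries and not as an amount of protein. In mesenchyme the Col1a1 to Col1a2 ratio of UMIs was 0.261 (0.245 to 0.278) in the C57BL/6 wild type, 0.317 in Dup, 0.347 in the G4 hindlimb and 0.373 in the Inv1 hindlimb. It was 0.437 (0.419 to 0.456) in the G4 forelimb and 0.629 (0.605 to 0.654) in the Inv1 forelimb, so both forelimbs lay above all hindlimbs. In muscle the ratio was 0.122 to 0.217, below the lowest mesenchyme value.

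The beaded filament chains were low and mesenchymal. Col6a1 was at 5.55, 6.63, 5.74, 6.91, 14.3 and 13.7 CPM in mesenchyme, Col6a2 at 6.27 to 13.1 CPM and Col6a3 at 4.30 to 14.6 CPM. Their levels in both forelimbs were above those in the 4 hindlimbs. The ratio of Col6a1 to Col6a2, whose genes are neighbours in the same direction on chromosome 10, was 0.711 to 1.21 in mesenchyme. Col6a5, a further chain that can replace Col6a3 in the filament, had 0 UMIs in mesenchyme of both G4 and Inv1 hindlimbs and 21 and 41 UMIs in the forelimbs (0.897 and 1.15 CPM). Among fibril-associated collagens, Col9a2, a chain of the cartilage collagen type IX that the selection keeps, was at 45.2, 28.4, 23.6, 18.4, 34.6 and 34.8 CPM. Col12a1, found in dense connective tissue, tendon and muscle sheaths, was at 16.4, 11.2, 9.50, 8.55, 26.2 and 24.0 CPM.

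Among the transmembrane collagens, Col25a1, which is needed for motor nerves to enter muscle, was at 39.3, 22.8, 27.6, 23.5, 53.6 and 39.8 CPM in mesenchyme and at 13.8, 22.7, 16.6, 26.4, 47.1 and 47.6 CPM in muscle. Its muscle level was thus below the mesenchyme level in the C57BL/6 wild type and about the same in Dup, and no class led throughout. Col13a1, a collagen of the neuromuscular synapse, led in muscle by the median over libraries, at 11.9, 7.73, 7.78, 5.46, 9.42 and 5.33 CPM, with 130 UMIs in all. In AER cells of the G4 and Inv1 hindlimbs it was higher, at 22.3 and 9.03 CPM, from 6 UMIs each. Col23a1 was mesenchymal, at 19.8 to 40.7 CPM.

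Muscle cells carried the multiplexin Col18a1 near or above the level of mesenchyme and type IV chains mostly below it, while type I and type III chains were lower still. Col4a1 was at 45.1, 45.4, 27.8, 26.9, 54.5 and 33.3 CPM in muscle against 44.3 to 71.8 CPM in mesenchyme. This is 75.5%, 103%, 60.1%, 57.5%, 75.9% and 66.8% of the mesenchyme level of the same library. Col18a1 was at 38.5, 34.3, 30.9, 21.2, 30.7 and 17.7 CPM in muscle against 17.3 to 29.0 CPM in mesenchyme. Col1a1 in muscle was at 3.41 to 16.8 CPM and Col1a2 at 28.0 to 94.2 CPM. The 8 mesenchyme markers summed to 105 to 228 CPM in muscle cells and the 8 muscle markers to 1547 to 5208 CPM. How far free RNA or neighbouring cells set the collagen levels of muscle was not tested.

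Endothelial cells held the highest Col4a1 and Col4a2 levels of the 5 classes, while Col4a5 was at 0 to 2.13 CPM there and Col4a4 and Col4a6 had 0 UMIs. Col4a1, the main chain of basement membrane collagen, was at 970, 755, 868, 1004, 1332 and 999.9 CPM there, and its partner Col4a2 at 495, 485, 480, 536, 721 and 638 CPM. The lowest endothelial Col4a1 value was above every value of the other 4 classes, the highest of which was 194 CPM. Col15a1, a multiplexin of vessel and muscle basement membranes, was at 290, 203, 152, 201, 304 and 222 CPM. In mesenchyme it was at 0.162 to 0.785 CPM. A Col15a1 UMI was found in 67.6% to 96.7% of endothelial cells and in 0.118% to 0.741% of mesenchymal cells, which gives the share in a class where it is near 0. With each cell thinned to 4000 UMIs these shares were 46.7% to 70% and 0.0186% to 0.315%. The median depth was 8715 to 21336.5 UMIs per endothelial cell, 7454 to 13499 per ectoderm cell, 5691 to 9194 per AER cell and 6611 to 9807 per mesenchymal cell, and the other shares at equal depth stand in the closing text. Col18a1, whose C-terminal end is the vessel inhibitor endostatin, was at 467, 307, 277, 282, 493 and 315 CPM. Col4a1, Col4a2, Col18a1 and Col15a1 together held 87.1% to 97.0% of the collagen UMIs of endothelial cells. The mesenchyme markers summed to 40.3 to 365 CPM in endothelium, and the level of Col3a1 there ran from 0 to 47.4 CPM. These values, and those of ectoderm and AER, rest on small classes and were chosen for the text after they were seen.

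In dorso-ventral ectoderm, Col18a1 was the highest collagen gene in every library. It was at 340, 207, 281, 286, 425 and 321 CPM, a level like that of endothelium. Col17a1, the transmembrane collagen of hemidesmosomes that anchors basal keratinocytes, was at 16.2, 29.3, 23.2, 48.2, 150 and 94.9 CPM. It was at 18.6 to 82.6 CPM in AER cells and at 0.105 to 0.335 CPM in mesenchyme. Both forelimb values in ectoderm lay above the 4 hindlimb values, with 11 to 95 ectoderm cells per library. A Col17a1 UMI was found in 14.5% to 75% of ectoderm cells against 0.0988% to 0.36% of mesenchymal cells. Col7a1, which forms anchoring fibrils under the epidermis, was at 3.91 to 15.0 CPM, and Col19a1 at 9.02 to 31.6 CPM, with 27 and 50 UMIs in all. The mesenchyme markers summed to 57.1 to 372 CPM in ectoderm, highest in the C57BL/6 wild type with its 11 cells, where Col3a1 was also highest at 183 CPM against 3.76 to 29.3 CPM in the others.

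The Col4a1 and Col4a2 chains ranked differently in different classes. The ratio of Col4a1 to Col4a2 UMIs was 1.56 to 1.96 in endothelium, 1.54 to 2.06 in mesenchyme and 1.49 to 2.35 in muscle. In dorso-ventral ectoderm it was 0.733 to 1.33. In AER cells it was 0.525, 0.559, 0.564, 0.291, 0.344 and 0.433, so that Col4a2 exceeded Col4a1 in 6 of 6 libraries, with an interval that reached 1 in Dup alone (0.301 to 1.01). No AER value overlapped a value of another of these classes, though AER cells gave only 11 to 75 Col4a1 UMIs per library. Col4a5, the chain of another type IV trimer, was at 18.6 to 27.5 CPM in AER cells, 10.8 to 27.5 CPM in ectoderm and 4.49 to 9.87 CPM in mesenchyme. Its head-to-head neighbour Col4a6 had 15 UMIs in AER cells in all and reached 22.3 CPM in the G4 hindlimb.

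**Figure D2:**
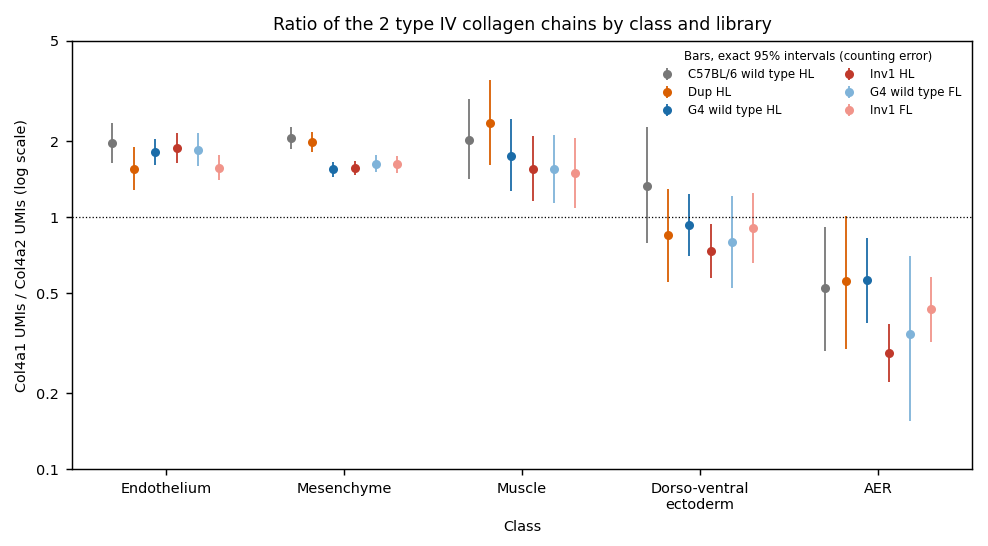
Ratio of Col4a1 to Col4a2 UMIs (log scale) by class and library, with exact 95% intervals for counting error and a dotted line at equal counts. Endothelium, mesenchyme and muscle lie between 1.49 and 2.35, and the AER lies at 0.291 to 0.564.

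AER cells, though epithelial, held Col5a2 above the mesenchyme level in 6 of 6 libraries and Col1a2 in 4 of 6, the exceptions being the C57BL/6 and G4 hindlimb wild types. Col1a2 was at 122, 294, 141, 260, 840 and 382 CPM in AER cells, which is 48.3%, 167%, 90.1%, 163%, 278% and 203% of the mesenchyme level of the same library. Col5a2 was at 91.6, 115.1, 156, 316, 206 and 310 CPM, or 176% to 647% of the mesenchyme level. Col1a1 and Col3a1, the main partners of these chains in fibrils, were by contrast at 4.52 to 55.1 and at 2.58 to 76.3 CPM. The Col1a1 to Col1a2 ratio was 0.0173 to 0.263 in AER cells. Col5a1, the other type V chain, was at 52.5% to 124% of its mesenchyme level there. Col27a1 was at 25.4, 38.4, 26.0, 45.2, 55.1 and 20.7 CPM in AER cells, from 60 UMIs in all. It too was above the mesenchyme level in 6 of 6 libraries, narrowly in the Inv1 forelimb (20.7 against 19.5 CPM). Of the 8 mesenchyme markers, the forelimb factor Tbx5 was at 0 in AER cells of the 4 hindlimb libraries and of the Inv1 forelimb. Tbx4 and Pitx1 were at 0 in both forelimbs, and Lhx9 and Tbx4 in the G4 hindlimb. All 8 summed to 19.0% to 36.9% of their mesenchyme level in AER cells, and Prrx1 alone was at 0.887% to 19.9%. In AER cells with UMIs of fewer than 2 of these markers, 5 to 59 cells per library, Col1a2 was at 69.9, 283, 159, 313, 575 and 390 CPM. In the same cells Col5a2 was at 69.9, 102, 172, 353, 0 and 313 CPM, where the 0 comes from 5 cells. The value of 69.9 CPM in the C57BL/6 library rests on 2 UMIs for each gene. A Col1a2 UMI was found in 54.5% to 90% of AER cells and in 54.6% to 72.8% of mesenchymal cells. The basement membrane genes Col4a2 and Col18a1 were also high in the AER, at 203 to 441 and 168 to 413 CPM.

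Within mesenchyme the collagen genes parted into a connective tissue group and a cartilage group. The finer classes deposited for the C57BL/6 pair divide mesenchyme into stylopod (upper limb segment), zeugopod (middle segment) and autopod (hand or foot plate) mesenchyme, muscle connective tissue and chondrocyte progenitors of stylopod and autopod. They hold 90 to 688 wild-type and 128 to 1468 Dup cells each. Of the 21 collagen genes at 10 CPM or more in a finer class, 16 were highest in the same class in both libraries. For 10 of them this was muscle connective tissue and for 6 the stylopod chondrocyte progenitors. Clusters were made from these same cells, so this is a description.

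Col3a1 was at 952 CPM in wild-type and 778 CPM in Dup muscle connective tissue, at 520 and 554 CPM in stylopod mesenchyme and at 64.7 and 59.0 CPM in autopod mesenchyme. It was thus lower in the more distal class in both libraries. Col1a2 was at 431 and 423 CPM in muscle connective tissue, and Col1a1 at 166 and 209 CPM there, against 24.0 and 17.2 CPM in autopod mesenchyme. Col12a1 was at 62.6 and 63.8 CPM in muscle connective tissue and at 2.10 and 1.67 CPM in autopod mesenchyme. The beaded filament genes Col6a1, Col6a2 and Col6a3, with Col5a1, Col4a1 and Col23a1, were highest in muscle connective tissue too. The balance of type III to type I differed between finer classes. In wild type and Dup the Col3a1 to Col1a1 ratio of UMIs was 7.04 and 7.30 in stylopod, 3.88 and 3.19 in zeugopod and 2.70 and 3.44 in autopod mesenchyme. It was 6.64 and 6.46 in stylopod chondrocyte progenitors and 0.971 and 0.871 in those of the autopod. In Dup the zeugopod value was below the autopod value, so the order along the limb was not the same in both libraries.

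The cartilage group goes against the name of the selection. Col9a2 was at 287 and 289 CPM in stylopod chondrocyte progenitors, 6.86 (5.84 to 8.06) and 6.07 (5.06 to 7.29) times its level in stylopod mesenchyme of wild type and Dup. Col11a2 was at 32.9 and 47.6 CPM, 29.5 (13.2 to 77.7) and 24.1 (11.8 to 54.0) times the stylopod mesenchyme level, and Col11a1 at 267 and 230 CPM, 3.35 and 3.23 times. Col27a1 was at 73.6 and 66.7 CPM, 2.88 and 2.83 times, and Col8a1 and Col16a1 were highest in these cells as well. In autopod chondrocyte progenitors Col9a2 was at 9.83 CPM in wild type and 33.3 CPM in Dup, a ratio of 3.39 (1.72 to 7.43). With these genes included, the set is not free of cartilage collagens, and it is named here by the rule that chose it.

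**Figure D3:**
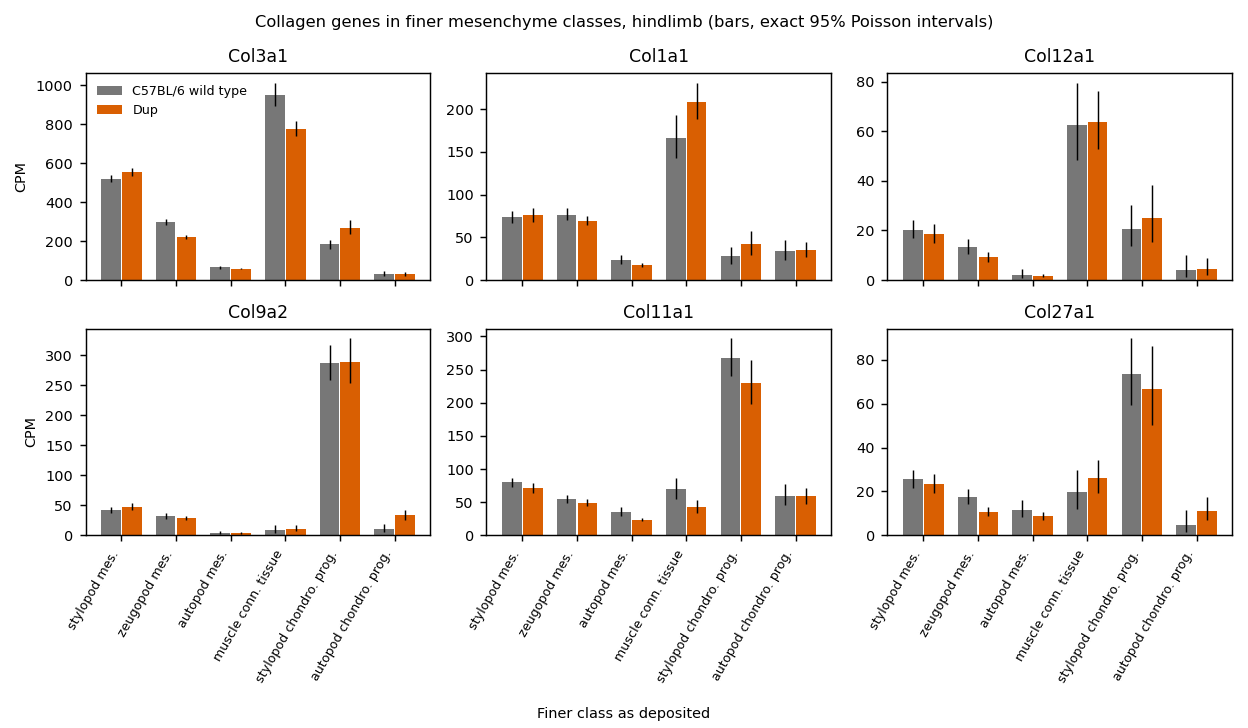
Levels (CPM) of 6 collagen genes in the finer mesenchyme classes of C57BL/6 wild-type and Dup hindlimbs, with exact 95% Poisson intervals. Col3a1, Col1a1 and Col12a1 peak in muscle connective tissue, and Col9a2, Col11a1 and Col27a1 in stylopod chondrocyte progenitors.

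The comparison of Dup with the C57BL/6 wild type asked whether the duplication is accompanied by other collagen levels. In mesenchyme as a whole the summed level was 817 CPM in Dup and 1138 CPM in wild type, a ratio of 0.718 (0.705 to 0.731). With 1 library per group there is no test, and a gene is counted when its CPM ratio is 1.5 or more either way among genes with a mean of 10 CPM or more over the pair. Of 14 collagen genes measured, 4 were lower by this rule, against 1.95% of all 7966 genes, and 0 were higher, against 0.716%. The 4 were Col25a1 at 0.579 (0.521 to 0.642) of wild type, Col9a2 at 0.628 (0.571 to 0.691), Col11a1 at 0.641 (0.596 to 0.690) and Col27a1 at 0.647 (0.566 to 0.740). The median log2 ratio of the 14 genes was −0.50, and that of all genes −0.07. With median-of-ratios scaling it was −0.40, 1 gene was lower, and the split over all genes went from 57 higher and 155 lower to 77 and 103.

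The finer classes took different shares of the pair. Autopod mesenchyme was 16.1% of wild-type and 34.5% of Dup mesenchyme, stylopod mesenchyme 34.0% and 18.2%, and stylopod chondrocyte progenitors 8.30% and 3.01%. With each finer class weighted by its share in the pooled pair, the summed ratio was 0.898 and 1 of the 14 genes passed the fold. That gene was Col18a1, at 0.621, below 1 in 5 of the 6 finer classes. Col9a2 moved from 0.628 to 1.05, Col3a1 from 0.688 to 0.920, Col1a2 from 0.698 to 0.868 and Col1a1 from 0.848 to 0.993. Col11a1 moved to 0.845 and was below 1 in 6 of 6 finer classes. Col4a1 moved little, from 0.741 to 0.756. The cartilage markers, which include the 3 cartilage collagens left out, summed to 462 CPM in Dup and 763 CPM in wild-type mesenchyme. The erythroid markers summed to 2356 and 3650 CPM there, and the part of both lists in these ratios was not tested.

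**Figure D4:**
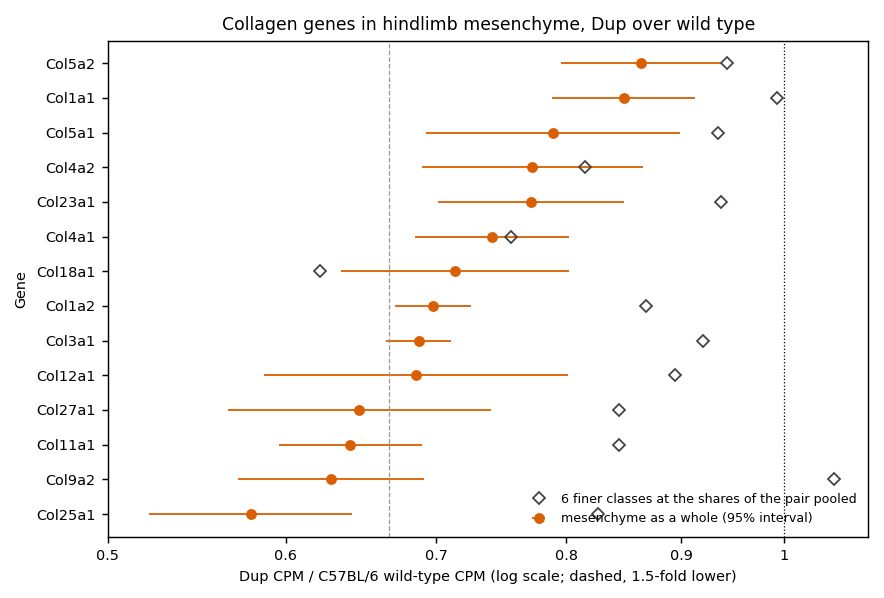
Ratio of Dup to C57BL/6 wild-type levels (log scale) for the 14 collagen genes measured in hindlimb mesenchyme, as a whole (filled, with exact 95% intervals) and with finer classes at their pooled shares (open diamonds); the dashed line marks a level 1.5-fold lower. Diamonds lie to the right of the filled points for all genes but Col18a1, and Col9a2 moves from 0.628 to 1.05.

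In muscle cells of the pair, 8 collagen genes were measured. Col25a1 was higher in Dup, at 22.7 against 13.8 CPM (ratio 1.65, 1.02 to 2.72), where 3.17% of all genes were higher by the fold. Col11a1 was lower, at 4.83 against 20.4 CPM (ratio 0.237, 0.106 to 0.478), where 5.49% were lower. For Col1a2, Col3a1, Col4a1, Col4a2, Col5a2 and Col18a1 the interval of the ratio included 1. The mesenchyme markers summed to 228 CPM in wild-type and 188 CPM in Dup muscle, and their part in these ratios was not tested.

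Inv1 was compared with the G4 wild type in each limb. In hindlimb mesenchyme 0 of 13 collagen genes passed the fold in either direction, where 0.503% of all genes were higher and 0.327% lower. The summed ratio was 1.10 (1.08 to 1.11), and with median-of-ratios scaling the split over all genes went from 40 higher and 26 lower to 31 and 34. Intervals of the fibril genes Col3a1 (1.20, 1.17 to 1.22), Col5a1 (1.23, 1.13 to 1.33), Col5a2 (1.21, 1.14 to 1.29) and Col11a1 (1.22, 1.16 to 1.28) lay above 1, and those of Col9a2 (0.779, 0.715 to 0.850) and Col25a1 (0.851, 0.787 to 0.920) below it. In forelimb mesenchyme the summed ratio was 0.806 (0.794 to 0.818). Of 17 genes, 2 were lower by the fold, Col18a1 at 0.596 (0.534 to 0.666) and Col1a2 at 0.624 (0.603 to 0.645), where 9.22% of all genes were lower, and 0 were higher, where 0.417% were. The median of all genes was −0.17 on the log2 scale in this pair and −0.34 for the collagen genes. With median-of-ratios scaling 0 collagen genes were lower, and the split over all genes went from 36 higher and 796 lower to 106 and 225. Col1a1, the partner of Col1a2, was at 0.898 (0.857 to 0.941).

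In muscle cells of the hindlimb pair Col3a1 was at 18.9 CPM in Inv1 and 9.08 CPM in G4, and Col25a1 at 26.4 and 16.6 CPM, so 2 of 7 genes were higher by the fold, against 3.86% of all genes, and 0 lower, against 0.792%. In the forelimb pair 7 of 10 were lower, where 20.4% of all genes were lower, and 0 higher, where 3.3% were. Among the 7 were Col1a1 at 0.455 (0.256 to 0.795) and Col3a1 at 0.662 (0.513 to 0.854). With median-of-ratios scaling 1 of the 10 remained past the fold, and the split over all genes went from 264 higher and 1628 lower to 605 and 775. The muscle markers summed to 2144 CPM in G4 and 3380 CPM in Inv1 muscle of the hindlimb and to 3212 and 5208 CPM in the forelimb. The mesenchyme markers there summed to 114.96 and 105 CPM and to 142 and 136 CPM, and the part of either list in these ratios was not tested.

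The G4 and Inv1 libraries of both limbs allow a joint fit of limb and genotype, with edgeR's quasi-likelihood test and Benjamini-Hochberg adjustment over all genes, counted at an adjusted p under 0.05. It has 4 libraries, 1 per limb and genotype, and 1 residual degree of freedom. That degree of freedom holds the limb by genotype difference, and there is no spread between replicates. The spread is shared over all genes, so a p-value sets a change against this difference and not against variation between embryos. In mesenchyme 12 of 35 collagen genes tested were lower in hindlimb than in forelimb, where 6.42% of 15006 genes were, and 1 was higher, where 2.1% were. The median log2 change was −0.50 for the collagen genes and −0.03 for all genes. With total UMIs and no scaling factor the median of all genes was −0.26, 17 collagen genes were lower and 0 higher, and the split over all genes went from 315 higher and 964 lower to 150 and 1595. Levels of all 12 lay higher in both forelimbs than in both hindlimbs. Since they were called from these same libraries, this largely follows from the call and adds no support.

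Values below are log2 changes of hindlimb against forelimb, with the adjusted p of edgeR. Col12a1 was at 9.50 and 8.55 CPM in the G4 and Inv1 hindlimbs and at 26.2 and 24.0 CPM in the forelimbs, a change of −1.25 ± 0.18 (SE; adjusted p = 3.53e-10). It was past the threshold in 11 of 11 alternative analyses (adjusted p 1.65e-10 to 0.0219). Of the 5 beaded filament genes, 4 were lower, with Col6a3 at −1.16 ± 0.18 (adjusted p = 7.15e-09), Col6a1 at −0.92 ± 0.18 (adjusted p = 1.09e-05), Col6a2 at −0.60 ± 0.18 (adjusted p = 0.0110) and Col6a5. Because Col6a5 had 0 UMIs in both hindlimbs against 62 in the forelimbs, it was at least 35.6-fold higher in forelimb against a floor of 3 counts over both hindlimbs (adjusted p = 5.21e-10).

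Among fibril-forming genes 3 of 9 were lower. Col1a1 changed by −0.91 ± 0.21 (adjusted p = 0.000675), Col11a2 by −0.97 ± 0.23 (adjusted p = 0.000609) and Col5a1 by −0.69 ± 0.19 (adjusted p = 0.00530). The abundant Col3a1 and Col1a2 had changes of 0.03 ± 0.25 (adjusted p = 0.956) and −0.37 ± 0.24 (adjusted p = 0.353) that did not pass, although each of their forelimb levels was above both hindlimb levels in CPM. Of fibril-associated genes 3 of 6 were lower, with Col14a1, a collagen of dermis and tendon, at −2.36 ± 0.38 (adjusted p = 7.79e-08) and Col16a1 at −0.74 ± 0.21 (adjusted p = 0.00685) beside Col12a1. Col22a1, known from myotendinous junctions, was higher at 1.15 ± 0.34 (adjusted p = 0.0127), but its levels were low, at 1.52 and 1.07 CPM in the G4 and Inv1 hindlimbs and 0.983 and 0.447 CPM in the forelimbs, and it was past the threshold in 4 of 11 alternative analyses (adjusted p 0.0103 to 0.871). The short-chain Col8a2 (−1.81 ± 0.32, adjusted p = 1.70e-06) and the transmembrane Col25a1 (−0.63 ± 0.19, adjusted p = 0.0147) were the remaining calls.

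Basement membrane collagens did not pass in mesenchyme, with 0 of 5 type IV genes called. Col4a1 had a change of −0.14 ± 0.20 (adjusted p = 0.719), Col4a2 of −0.07 ± 0.19 (adjusted p = 0.850) and Col18a1 of 0.37 ± 0.18 (adjusted p = 0.208). Markers moved with limb as well. The cartilage markers summed to 470 and 445 CPM in the G4 and Inv1 hindlimbs and to 961 and 617 CPM in the forelimbs, with 3 of 8 lower in hindlimb (Acan, Sox5, Sox6), and tendon and connective tissue markers to 604 and 718 CPM against 1070 and 894 CPM. In mesenchymal cells with no UMI of Col2a1, Col9a1 or Col9a3, a choice made after seeing the data, 11 of the 26 collagen genes tested were lower, against 4.51% of all 13225 genes, among them Col12a1, Col1a1, Col6a1, Col6a3 and Col14a1. Without the G4 forelimb library 3 genes were lower (Col1a1, Col6a1, Col12a1). Without the G4 or the Inv1 hindlimb library 6 were, and without the Inv1 forelimb library 16. The dependence of other calls on the library follows in the closing text.

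**Figure D5:**
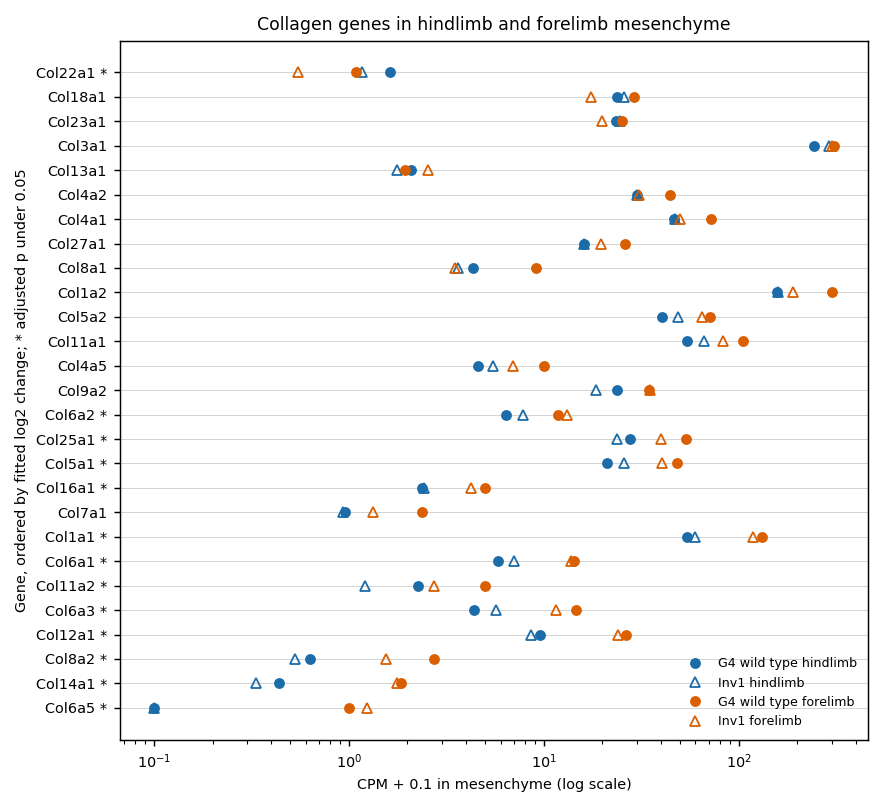
Levels (CPM + 0.1, log scale) of collagen genes in mesenchyme of the 2 hindlimb and 2 forelimb libraries of G4 and Inv1, ordered by the fitted log2 change, with an asterisk at an adjusted p under 0.05. For the 12 genes called lower in hindlimb both forelimb points lie to the right of both hindlimb points, and for Col22a1 both hindlimb points lie to the right of both forelimb points. The genes were called from these same libraries, so the separation largely follows from the call.

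In muscle cells 6 of 18 collagen genes were lower in hindlimb, where 2.42% of 10570 genes were, and 0 were higher (edgeR; 0 also at an unadjusted p under 0.05 and with DESeq2), where 0.596% were. With no scaling factor the collagen counts were the same, the median of all genes was −0.21 instead of −0.04, and the split over all genes went from 63 higher and 256 lower to 40 and 395. Col3a1 was at 9.08 and 18.9 CPM in hindlimb and at 62.9 and 41.6 CPM in forelimb muscle, a log2 change of −1.72 ± 0.27 (SE; edgeR adjusted p = 1.71e-07). Col1a2 was at 31.1 and 28.0 CPM against 94.2 and 62.3 CPM, a change of −1.20 ± 0.24 (adjusted p = 0.000160). Col5a1 (−1.44 ± 0.34, adjusted p = 0.00197), Col25a1 (−0.98 ± 0.26, adjusted p = 0.0106), Col5a2 (−1.16 ± 0.32, adjusted p = 0.0133) and Col12a1 (−1.95 ± 0.54, adjusted p = 0.0174) were lower as well. The mesenchyme markers summed to 114.96 and 105 CPM in hindlimb and 142 and 136 CPM in forelimb muscle, with 1 of 8 lower in hindlimb (Tbx5), and their part was not tested. Without the G4 hindlimb library 0 of these calls were made, without the Inv1 hindlimb library 2 (Col3a1, Col25a1), and without the Inv1 forelimb library 9.

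Between genotypes, over both limbs and within mesenchyme, 2 were lower in Inv1, where 0.866% of all genes were, and 0 higher, where 0.726% were (edgeR; at an unadjusted p under 0.05, 3 lower and 1 higher, and 0 with DESeq2). Col8a1, a short-chain collagen of vessels and connective tissue, was at 4.22 CPM in the G4 and 3.53 CPM in the Inv1 hindlimb and at 9.06 and 3.41 CPM in the forelimbs, a change of −0.76 ± 0.19 (SE; adjusted p = 0.00662). Col11a2 was at 2.16 and 1.11 CPM and at 4.87 and 2.63 CPM, a change of −0.86 ± 0.23 (adjusted p = 0.0135). Each was called in 3 of its alternative analyses (of 12 and of 11), with an adjusted p of up to 1.00, and neither without any 1 of the 4 libraries. The cartilage marker Acan was called lower in Inv1 too. In muscle 0 of 18 collagen genes were called in either direction (edgeR; at an unadjusted p under 0.05, 4 lower and 0 higher, and 0 with DESeq2), where 0.87% of genes were higher and 0.123% lower.

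Genes that work with collagens were read from 6 lists in the same fit of mesenchyme. Of 11 partners of fibrils, 7 were lower in hindlimb (median −0.82), where 6.42% of all 15006 genes were lower, 2.1% were higher and the median of all genes was −0.03. Tnc, the adhesion modulator tenascin-C, was at 2.04 and 4.16 CPM in hindlimbs and 14.1 and 13.9 CPM in forelimbs, a change of −2.01 (edgeR adjusted p = 1.32e-24), and Postn, the matricellular periostin, changed by −1.95 (adjusted p = 2.99e-15). Fbn1, the microfibril protein fibrillin-1, changed by −0.95 (adjusted p = 4.32e-06) and the small proteoglycan Fmod by −1.19 (adjusted p = 5.75e-06). Of 12 partners in basement membranes 6 were lower (median −0.51), with the laminin-binding Nid1 at −0.99 (adjusted p = 2.22e-06) and the laminin chains Lama4 at −0.95 (adjusted p = 6.28e-06), Lamc1 at −0.61 (adjusted p = 0.00927) and Lama2 at −0.67 (adjusted p = 0.00951). The type IV chains, partners of these proteins in the same sheets, had no call.

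Enzymes that act on collagen outside and inside the cell were read from separate lists. In this fit of mesenchyme 6.42% of all 15006 genes were lower in hindlimb and 2.1% higher. Of 11 genes for processing and cross-linking, 4 were lower in hindlimb (median −0.50), namely the lysyl oxidases Lox at −0.95 (edgeR adjusted p = 0.000586), Loxl1 at −0.66 (adjusted p = 0.00420) and Loxl2 at −0.52 (adjusted p = 0.0428), and the procollagen protease Adamts2 at −1.31 (adjusted p = 0.0160). Of 11 genes for folding and hydroxylation in the endoplasmic reticulum 0 were called (median −0.11), and of 5 collagenases and inhibitors 0 (median −0.30). The folding list lacks P3h1, P3h2, P3h3, P3h4, Colgalt1 and Colgalt2, which had no row under these symbols. For the same reason Mmp9 and Mmp13 are missing among the collagenases and Tll2 among the processing genes. Of 7 receptors only Ddr2 was lower, at −0.58 (adjusted p = 0.0459). In muscle Tnc (−2.62), Postn (−2.44), Sparc (−1.34), Lox (−1.31), P4ha3 (−1.56), Nid2 (−1.04) and Vcan (−0.84) were the calls of these lists by limb. All were lower in hindlimb, where 2.42% of all 10570 genes were. The number of genes of each list tested in muscle is not given here. For genotype the proteoglycan Dcn was higher in Inv1 mesenchyme, at 20.4 against 12.1 CPM in hindlimb and 47.4 against 22.1 CPM in forelimb (0.99, adjusted p = 3.55e-05), and the laminin Lama5 lower (−0.97, adjusted p = 0.00635). Of all genes in mesenchyme, 0.726% were higher and 0.866% lower in Inv1. Dcn was higher by the fold rule in Dup as well.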

How the data were processed

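The values are raw UMI counts, as deposited, that the authors obtained from droplet 3′ end libraries (10x Chromium v2) with Cell Ranger 3 on a custom mm9 reference. The submitters' processing notes also name mm10, and the annotation release is not stated. Each matrix came with the class, and for C57BL/6 cells the finer class, that the authors gave each cell after filtering on genes, mitochondrial share and doublet score; no further doublet call was made. Cells with more than 2000 genes detected were kept, counts were summed per class and library, and totals were taken over the 15668 genes that both matrices hold. A separate annotation of hindlimb cells gave the same class for all but 19 of 12512 cells. In all, 14 further columns with values per sample were left out.

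Intervals are exact Poisson, conditional binomial (ratios) and Clopper-Pearson (shares) intervals, 0.5 counts were added before a ratio was held against the fold, and the floor for a count of 0 is 3 counts. Sums of 4 libraries were fitted with edgeR 4.0.16 (quasi-likelihood test, limb and genotype terms, Benjamini-Hochberg adjustment) in R 4.3.3, with DESeq2 1.42.0 as an alternative, and the rest was done in Python 3.11.15 with scipy 1.17.1. Simulated data with known changes were tested with the same code. Of genes changed 2-fold by limb, 80% were recovered in mesenchyme (15006 genes) and 40% in muscle (10570 genes). At 1.5-fold these were 23% and 5% by limb, and 41% and 5% by genotype, so most smaller changes would be missed. The simulated data held no limb by genotype difference.

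The members and lists were chosen with earlier results of these data known. All members may be named, with values per library for those at 10 or more CPM in a class of 30 or more cells in every library of 1 matrix, and of each related list at most 4 genes past the threshold by smallest p, or past the fold in all 3 pairs. Values in smaller classes were named after they were seen. Of 187 genes in 6 related and 11 marker lists, 16 had no row under the symbol used. In mesenchyme, limb calls (higher and lower) were 2 and 1 of 8 mesenchyme, 0 and 3 of 5 muscle, 2 and 3 of 5 AER, 1 and 1 of 6 ectoderm, 0 and 0 of 5 endothelium, 0 and 0 of 5 immune, 1 and 0 of 6 neural and glial, 0 and 0 of 6 erythroid, 0 and 1 of 3 periderm, 0 and 3 of 8 cartilage and 0 and 1 of 5 tendon markers tested.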

Additional observations from a re-analysis of the deposited data

Results flagged for a closer look

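The Inv1 to G4 ratio was above 1 in the hindlimb pair and below 1 in the forelimb pair, with both intervals clear of 1, for 12 collagen genes counted by class, of which 7 were in mesenchyme (Col1a1, Col4a5, Col5a1, Col5a2, Col6a3, Col11a1 and Col18a1), 2 in endothelium (Col4a1 and Col15a1), and 1 each in muscle, AER and ectoderm (Col17a1). The median ratio of all genes was itself higher in the hindlimb pair, at 1.03 against 0.884 in mesenchyme, 1.03 against 0.861 in muscle and 0.987 against 0.795 in AER cells. In 3 of the 12 the intervals were also clear of these medians, in opposite directions. No count over all genes is given for either rule, so neither number is read as a trait of collagen genes. Col11a1 in mesenchyme was at 66.3 CPM in Inv1 and 54.3 CPM in G4 hindlimb, a ratio of 1.22 (1.16 to 1.28), and at 82.8 and 105 CPM in forelimb, a ratio of 0.790 (0.748 to 0.834). Col3a1 in muscle had ratios of 2.08 (1.39 to 3.18) in hindlimb and 0.662 (0.513 to 0.854) in forelimb. Col1a2 in AER cells was at 260 and 141 CPM in the Inv1 and G4 hindlimbs, a ratio of 1.84 (1.29 to 2.69), and at 382 and 840 CPM in the forelimbs, a ratio of 0.455 (0.336 to 0.624), where the G4 forelimb had 10 AER cells. With 1 library per group the difference between limbs was not tested, and the intervals cover counting error only.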

How the results depend on the processing

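No paired analysis was possible because each group has 1 library and the labels give all of them the replicate number 1. The ratio of Col9a2 in Dup changed direction, from 0.628 to 1.05 with finer classes at pooled shares, the 1 reversal counted for single genes below. The median log2 change of the collagen genes between genotypes changed direction too when a library was left out. In mesenchyme it was −0.07 in the main fit, 0.34 without the G4 forelimb and 0.10 without the Inv1 hindlimb. It was −0.33 without the G4 hindlimb and −0.30 without the Inv1 forelimb. In muscle it was −0.26, and 0.17 without the G4 forelimb. Without the G4 hindlimb, Inv1 hindlimb or Inv1 forelimb it was −0.64, −0.28 or −0.45. Of the values that answer a comparison, 112 were the same under an alternative, 31 were weaker, 6 stronger and 15 moved, and for single genes 188 were the same, 72 weaker, 10 moved and 1 reversed; the causes were not tested. The 2 genes lower in Inv1 mesenchyme became 0 with no scaling factor, with a limit of 3000 detected genes, with DESeq2, with genotype as the only term, in cells without Col2a1, Col9a1 or Col9a3 UMIs (chosen after seeing the data, as was leaving out libraries with 1 term), and without any 1 library (0 to 0). The 1 gene higher in hindlimb mesenchyme became 0 with no scaling factor, DESeq2, limb as the only term and in the same cells, and 0 to 0 without any 1 library. The 12 lower became 1 with DESeq2, which gave 6 of the 35 an adjusted p, 6 with limb alone and 3 to 16 without a library (3 without the G4 forelimb, 6 without either hindlimb, 16 without the Inv1 forelimb). In muscle the 6 lower became 1 with DESeq2, 3 with limb alone and 0 to 9 without a library (0 without the G4 hindlimb, 2 without the Inv1 hindlimb, 9 without the Inv1 forelimb).

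For Dup, with no limit on low genes 3 were higher instead of 0 and 6 lower instead of 4. The 4 lower became 1 with median-of-ratios scaling, 8 as a mean over cells, 0 at a fold of 2 and 1 with finer classes at pooled shares, and the summed ratio went to 0.770, 0.670 and, with finer classes, 0.898. In the Inv1 hindlimb 3 were higher and 2 lower with no limit on low genes, and the summed ratio was 1.14 at the limit of 3000 genes, 1.06 with median of ratios and 1.07 as a mean over cells. In the Inv1 forelimb 2 were higher and 11 lower with no limit on low genes, the 2 lower became 0 with median of ratios and at a fold of 2, and the summed ratio was 0.912 with median of ratios. With each cell thinned to 4000 UMIs, the share with a Col4a1 UMI in C57BL/6 endothelium went from 100% to 84%, and with a Col1a2 UMI in AER cells to 43.8% in C57BL/6, 60% in Dup, 42.4% and 41.5% in the G4 and Inv1 hindlimbs and 80% and 53.8% in the forelimbs, where mesenchyme was at 39.5% to 55.3%. For Col17a1 in ectoderm it went to 0%, 12.9%, 10.9%, 13.7%, 45.8% and 26.7% in the C57BL/6, Dup, G4 hindlimb, Inv1 hindlimb, G4 forelimb and Inv1 forelimb libraries. Leaving out 1 finer class at a time in the joint fits, and weighting finer classes in the Inv1 pairs, were not run, since no finer classes were used for those cells. Classes of 10 to 95 cells limit what AER and ectoderm levels can show.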

Other observations

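Cells of 2 further classes carried collagen UMIs that no comparison uses. Cells deposited as neuronal, 4 to 17 per library, held Col3a1 at 285, 104, 181, 255, 287 and 127 CPM and Col5a2 at 72.6 to 326 CPM, with mesenchyme markers summing to 36.3 to 285 CPM. Col20a1, a fibril-associated collagen read in G4 and Inv1 cells alone, was at 12.1, 20.9, 30.8 and 17.6 CPM in them, from 15 UMIs in all. Keratinocytes held Col18a1 at 93.6 to 204 CPM and Col4a1 at 41.7 to 97.9 CPM, with a Col4a1 to Col4a2 ratio of 1.14 to 2.18, above the AER value in every library.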
